A study of Homo sapiens with 16 samples.

Results

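The EGFR locus was taken as 54.5 to 56.0 Mb of chromosome 7 (GRCh37), with EGFR itself at 55086725 to 55275031, and its members were the TOP2B intervals whose midpoint lay in that stretch. It held 708 of the 44922 intervals in the 4 deposited TOP2B lists, chosen by position alone. The cells were PC9, a long-established line from a human lung adenocarcinoma, driven by a mutant and active EGFR. The assay was CUT&RUN: an antibody brings a nuclease to the protein of interest, and the DNA cut free around it is sequenced. The 4 lists belong to METTL7A knockout cells under osimertinib, wild-type cells under osimertinib, untreated METTL7A knockout cells and untreated wild-type cells. Osimertinib, an inhibitor of mutant EGFR, was given over 6 to 8 weeks in doses that began at 100 nM. The labels name METTL7A, a methyltransferase-like gene, as the only gene altered; they do not say whether the knockout is a clone. By its name each list is an intersection over 2 replicate libraries, and how the intersection was made is not stated. A stretch without an interval can thus be one where either library lacked a call. The result is a single set of intervals, so a list has no replicate. Values are therefore given per list, no difference between conditions was tested, and 95% intervals cover counting error only, with each TOP2B interval taken as an independent count. The 4 comparisons share lists with each other and are not independent.

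TOP2B is the beta isoform of DNA topoisomerase II, an enzyme that cuts both strands of a duplex, passes another duplex through the break and reseals it, which relieves the twist that transcription creates. It is known to sit at promoters, along transcribed genes and at loop anchors, and breaks left by it can feed rearrangement. EGFR encodes the epidermal growth factor receptor, a receptor tyrosine kinase on which PC9 cells depend, and it is often amplified in lung cancer. Its nearest protein-coding neighbours in RefSeq order (GRCh38.p14) are SEC61G, a subunit of the channel that carries proteins into the endoplasmic reticulum, and beyond it VSTM2A, on the promoter side. On the 3' side they are LANCL2 and then VOPP1. Their positions in GRCh37 were not used here, so intervals are placed against EGFR only.

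An interval contained the EGFR start in each of the 4 lists, so the sequence just before that start is shown. It is the 250 bases upstream of the annotated EGFR start in RefSeq, on the plus strand at chr7:55018767-55019016 of GRCh38.p14, tied to the intervals by the gene's start and not by converted positions. Capitals mark TCCTCC, a repeat chosen after the letters had been read.

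EGFR promoter: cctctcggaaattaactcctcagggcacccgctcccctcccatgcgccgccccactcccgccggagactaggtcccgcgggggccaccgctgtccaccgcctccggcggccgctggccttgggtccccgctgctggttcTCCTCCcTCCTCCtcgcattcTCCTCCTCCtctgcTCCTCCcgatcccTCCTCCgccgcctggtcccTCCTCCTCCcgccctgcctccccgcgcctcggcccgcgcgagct

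The window held 73.6% G and C and 25 CG dinucleotides, against medians of 58% and 11 over 35116 RefSeq promoter windows of the same length. TCCTCC or its reverse complement GGAGGA occurred 8 times, overlapping copies included. That repeat was present in 31.8% of all windows, and 0.174% held it at least 8 times. The GC box GGGCGG or CCGCCC occurred 2 times, and 42.6% of windows held it. TATAAA or TTTATA, the letters of a TATA box, did not occur in the EGFR window and did in 10.7% of windows. These matches describe the letters and say nothing of what was bound.

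All 4 lists met at the start of EGFR. In the treated knockout the interval ran from 55086101 to 55088300, that is 624 bp before the start to 1575 bp after it. In treated wild type it ran from 55085501 to 55087400, 1224 bp before the start and 675 bp after. The untreated knockout had 55084351 to 55087000, which reached 2374 bp upstream and 275 bp into the gene. Untreated wild type had a single interval of 15350 bp, from 55080301 to 55095650. The stretch common to all 4 was 900 bp long, from 55086101 to 55087000. The called peaks behind these intervals had maxima of 2.13, 1.45, 1.2 and 1.5 times the median maximum of their own list, in the order given. A called peak is the region reported by the authors' peak caller, and its maximum is the highest deposited signal in it. A called peak can be wider than the interval or give several intervals. Whether a deposited maximum was taken from a single replicate or from both is not given. In the treated knockout the maximum lay 5.18 kb inside the gene, and the interval was 1 of 3 cut from the same called peak. In treated wild type the maximum lay 0.876 kb inside the gene, in untreated wild type 8.28 kb inside, and in the untreated knockout at -0.724 kb, upstream of the start.

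**Figure D1:**
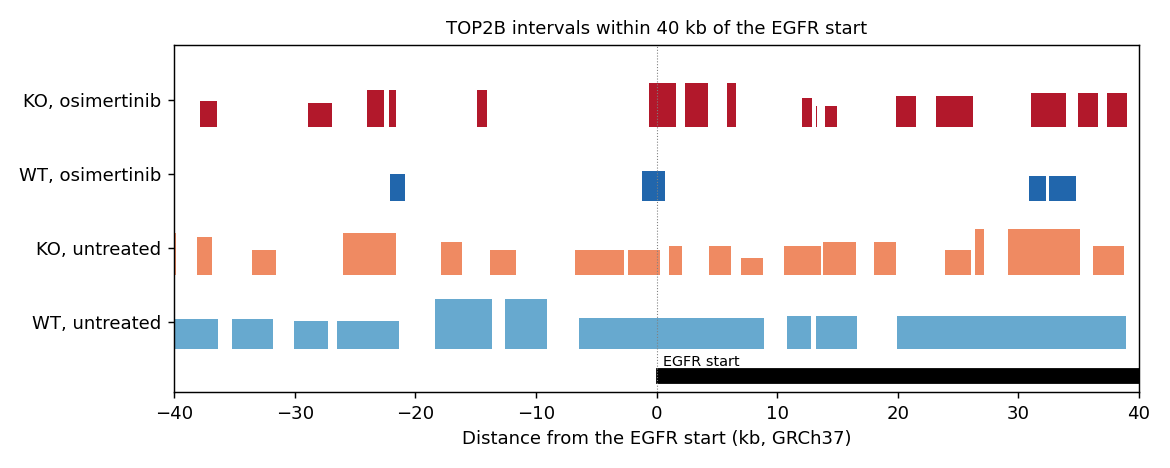
Intervals within 40 kb of the EGFR start in the 4 TOP2B lists; the horizontal axis is the distance from the start in kb, the height of a box is the maximum of its called peak over the list median on a scale common to all lists, and the black bar is EGFR. A box crosses the start in each list, 2200 bp wide in treated knockout, 1900 bp in treated wild type, 2650 bp in untreated knockout and 15350 bp in untreated wild type.

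Around the start the 4 lists spanned a wide range of coverage. Within 40 kb after the start, 42.4% of the bases were covered by intervals in the treated knockout, 11% in treated wild type, 60.1% in the untreated knockout and 83.2% in untreated wild type. Within 40 kb before it the shares were 17.5%, 6.12%, 45.2% and 73.9% in the same order. Treated wild type had 2 intervals centred on each side of the start, and the interval over the start had its next neighbour downstream at 55117601. In every list the gene side was covered more than the upstream side.

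The locus ranked high in all lists. It held 229 of 7493 intervals in the treated knockout, 3.06% of the list (2.68 to 3.47, exact Clopper-Pearson interval). Treated wild type had 85 of 9655 there, or 0.88% (0.704 to 1.09). The untreated knockout had 233 of 12493, or 1.87% (1.64 to 2.12), and untreated wild type 161 of 15281, or 1.05% (0.898 to 1.23). Among all windows of 1.5 Mb laid on the same grid and holding an interval, the locus was the fullest in both knockout lists. The next fullest held 203 intervals in the treated knockout and 219 in the untreated knockout. The grid was laid from the start of the locus, so it kept the locus whole and could cut other dense stretches. The locus came 9th in treated wild type, and in untreated wild type it shared the 4th place with a window of chromosome 20. Its count was 76.3, 17, 58.2 and 26.8 times that of the median window of each list. The order by number of intervals was untreated knockout, treated knockout, untreated wild type and treated wild type. The knockout counts differed by 4 intervals, within counting error.

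By median, the intervals of the locus were wider than those of their lists as a whole, though only slightly in treated wild type, and their called peaks were higher. A called peak enters these medians once for each of its intervals. The median maximum was 0.455 in the treated knockout, 0.802 in treated wild type, 0.506 in the untreated knockout and 0.706 in untreated wild type, in the deposited signal. Over the median maximum of the list these were 1.5, 1.36, 1.4 and 1.5, and the highest were 2.75, 1.73, 2.2 and 2.75. At least 95% of the locus intervals in every list came from a called peak at or above its list's median maximum (98.3%, 96.5%, 95.7% and 95.03%), whereas over whole lists that share was 64.1%, 58.7%, 74.2% and 51.9%. Deposited maxima lie on steps, of 0.0379, 0.0534, 0.0723 and 0.0392 in the same order. Values tied with the median are counted in, so this threshold is not alike between lists. Median widths in the locus were 1300, 1250, 2000 and 3700 bp, against 1150, 1200, 1650 and 2600 bp over the lists. Broad called peaks were often cut into several intervals: in the locus 76% of the intervals in the treated knockout, 72.9% in treated wild type, 6.87% in the untreated knockout and 78.3% in untreated wild type shared a called peak with another. Over the lists the same shares were 33.7%, 49.9%, 3.34% and 49.96%. Pieces of a called peak are not independent counts, so the 95% intervals given here are too narrow where such pieces are common. Counting each called peak once, the 4 lists had 114, 40, 225 and 76 peaks in the locus. Copies of the locus and TOP2B per copy cannot be told apart in these lists, which hold no measure of DNA amount.

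**Figure D2:**
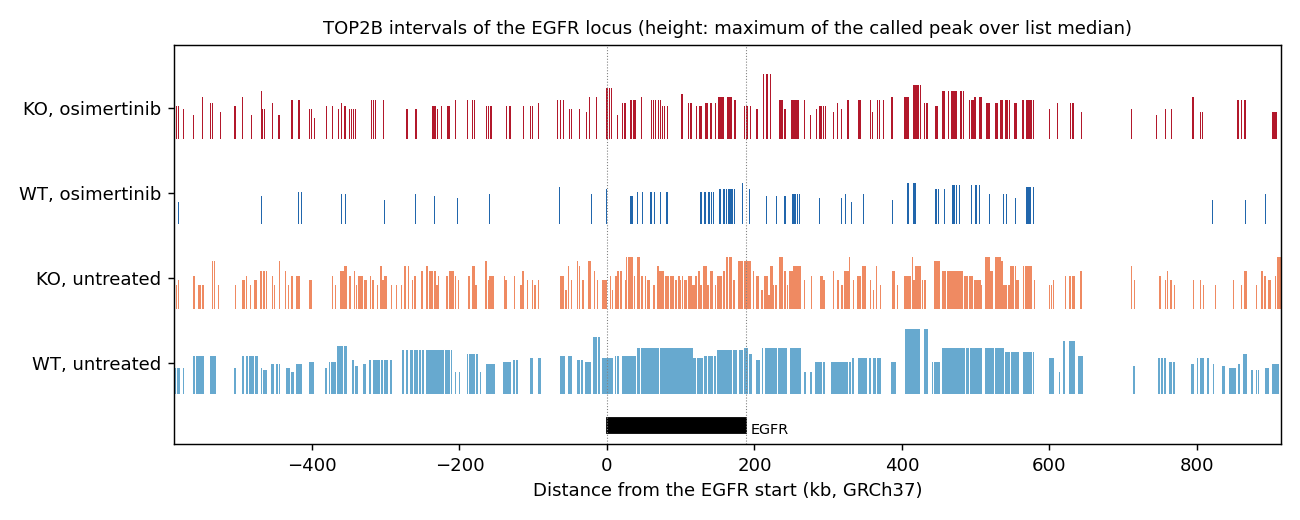
All 708 intervals of the EGFR locus by distance from the EGFR start in kb, 1 row for each list, with box height as the maximum of the called peak over the list median and EGFR as the black bar. Untreated wild type covers most of the gene, treated wild type has 85 narrow intervals that are sparse on the promoter side, and no list has an interval in a stretch of 66.2 kb on the 3' side.

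The locus was split into 5 segments by the midpoints of intervals: a far promoter side of 486.7 kb, a near promoter side of 100 kb before the start, the gene body of 188.3 kb, a near 3' side of 100 kb and a far 3' side of 625 kb. The gene body was covered more than the rest of the locus in every list. Intervals covered 38.8% of the body in the treated knockout, 20% in treated wild type, 66.9% in the untreated knockout and 86.1% in untreated wild type. The rest of the locus was covered to 22.2%, 6.56%, 38.7% and 50.9% in the same order.

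By density of intervals the picture was the same in 3 of the 4 lists. The body held 48 intervals in the treated knockout, 25.5 per 100 kb (18.8 to 33.8, exact Poisson interval), which was 1.85 times the density of the rest of the locus (1.31 to 2.55), or 1.14 times when each called peak was counted once at its maximum. In treated wild type it held 24, or 12.7 per 100 kb (8.17 to 19), 2.74 times the rest (1.63 to 4.46). Those 24 intervals came from 4 called peaks, and counted by called peak the ratio was 0.995. The untreated knockout had 41 in the body, or 21.8 per 100 kb, 1.49 times the rest (1.03 to 2.09). Untreated wild type had 19, or 10.1 per 100 kb, and a ratio of 0.932 (0.545 to 1.51), with fewer but wider intervals, of median width 6300 bp.

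Within the gene the part towards the 3' end held most of what all lists shared. The last 62.8 kb of the body was covered to 48.4% in the treated knockout, 38.1% in treated wild type, 66.4% in the untreated knockout and 81.7% in untreated wild type, and 20.3% of it was covered in all 4 lists at once. The first 62.8 kb was covered in all 4 lists to 4.86% and the middle to 5.5%. In treated wild type the coverage was 13.8% in the first part and 8.21% in the middle, and the counts of intervals were 6, 3 and 15 along the gene. The treated knockout had 33.1% and 34.8% in these parts, the untreated knockout 55.5% and 78.9%, and untreated wild type 85.3% and 91.4%. The last part was thus the most covered in the treated lists only, and in untreated wild type it was the least covered.

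The widest interval of the locus in untreated wild type lay inside EGFR, from 55171401 to 55199550, 28150 bp long with a maximum 1.92 times the list median. It was 1 of 6 intervals from a called peak that ran from 55128101 to 55203000. Treated wild type had no interval from 55168951 to 55213200, a stretch of 44.2 kb that includes the whole of this interval. In that stretch the treated knockout had 8 intervals over 27.3% of the bases, the untreated knockout 10 over 81.4% and untreated wild type 4 over 91.6%. Treated wild type intervals on both sides of it carried the same deposited area, maximum and region of the maximum. They were 13 pieces of a called peak that ran from 55128151 to 55231900, so that called peak spanned the empty stretch. Which of the replicates lacked a call in that stretch, and the signal there, are not given by the list.

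The region of a maximum can lie outside the interval that carries it, as it did for 63.8% of the locus intervals in the treated knockout, 72.9% in treated wild type, 9.01% in the untreated knockout and 47.8% in untreated wild type. In the treated knockout the called peak with the highest maximum in the body was the one over the EGFR start, at 2.13 times the list median. Treated wild type had its highest near the 3' end (1.73 times), carried by the interval 55269501 to 55270750 with the maximum outside it, at 55267551 to 55267600. In the untreated knockout 3 called peaks tied at 2.2 times, with intervals from 55113151 to 55121850, from 55127401 to 55131150 and from 55248201 to 55256250. Untreated wild type had its highest in the widest interval named above. At the 3' end of EGFR, intervals contained the end position in the untreated lists, from 55273201 to 55282200 in the knockout and from 55272701 to 55277450 in wild type. In the treated knockout the nearest intervals ended 781 bp before the end and began 70 bp after it. Treated wild type had its nearest intervals 4281 bp before the end and 4970 bp after.

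In treated wild type the far promoter side was the sparsest segment by density and by coverage. Its density was 0.483 times that of the rest of the locus (0.262 to 0.84). The far promoter side held 69 intervals in the treated knockout, 16 in treated wild type, 78 in the untreated knockout and 65 in untreated wild type, or 14.2, 3.29, 16 and 13.4 per 100 kb. Covered bases there were 19.1%, 3.76%, 36.5% and 49.4%. The near promoter side held 12, 4, 16 and 10 intervals in the same order, over 15.9%, 4.35%, 33.8% and 46.4% of its bases. It was the least covered segment in every list but treated wild type. Treated wild type had no interval from 54928801 to 55021600, 92.8 kb in which the other lists had 11, 11 and 9 in the order just used. On the near promoter side 2 called peaks of the treated knockout tied for the highest maximum (1.75 times the list median), with intervals from 55062751 to 55065100 and from 55071801 to 55072700. The highest of treated wild type lay at 55022201 to 55022250 (1.55 times). In the untreated knockout 3 called peaks tied at 2 times, and one of them had its maximum at the same 50 bases, 55022201 to 55022250. There those bases lay outside the interval that carries the maximum, 55022901 to 55023100. Untreated wild type had its highest at 55073051 to 55073100 (2.42 times). On the far promoter side the highest maximum lay at 54618551 to 54618600 in the treated knockout (2 times), at 54668551 to 54668600 in treated wild type (1.36 times) and at 54733051 to 54733100 in untreated wild type (2 times), while 3 called peaks tied at 2 times in the untreated knockout.

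**Figure D3:**
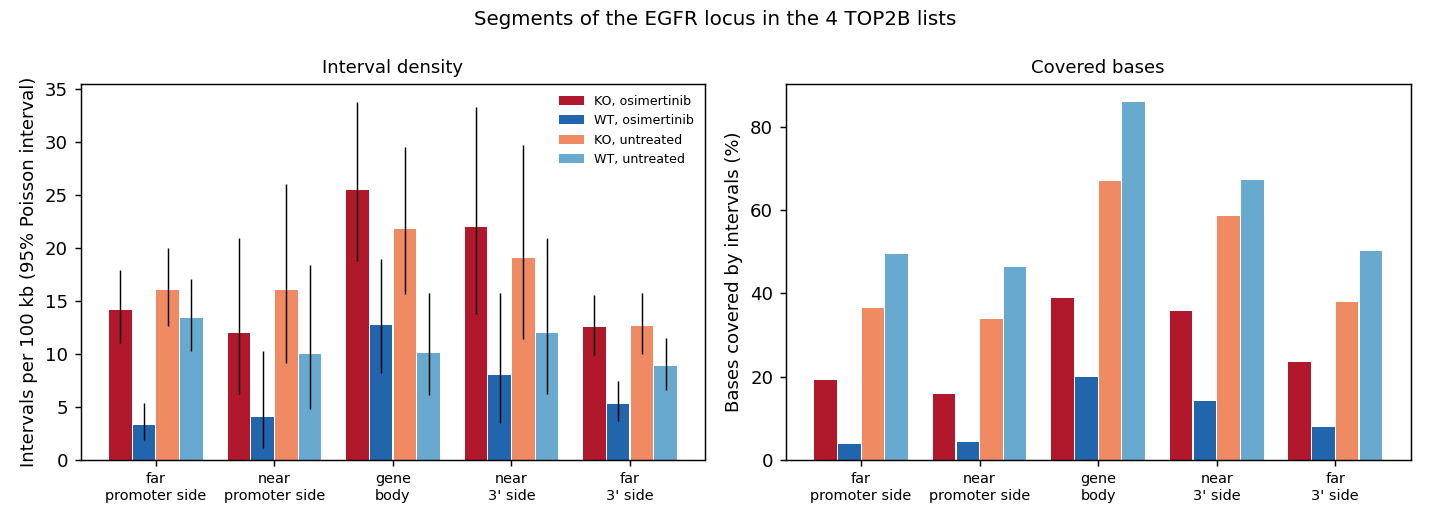
Intervals per 100 kb with exact 95% Poisson intervals, and the percentage of bases covered, in the 5 segments of the locus for the 4 lists; from left to right in each group the bars are treated knockout, treated wild type, untreated knockout and untreated wild type. The gene body has the highest coverage of the 5 segments in each list, at 38.8%, 20%, 66.9% and 86.1%.

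The near 3' side was the next most covered segment after the gene body in every list. Its density of intervals was 1.49 times that of the rest of the locus in the treated knockout and 1.45 times in treated wild type. In the untreated knockout it was 1.24 times and in untreated wild type 1.13 times, and the counting interval included 1 in every list. The near 3' side had 22 intervals in the treated knockout, 8 in treated wild type, 19 in the untreated knockout and 12 in untreated wild type, and covered bases of 35.8%, 14.1%, 58.5% and 67.2%. The far 3' side held 78, 33, 79 and 55, at 0.723, 0.889, 0.718 and 0.726 times the density of the rest. The counting interval of that ratio lay below 1 in the knockout lists only. The highest maximum of the far 3' side lay at 55506601 to 55506650 in the treated knockout (2.25 times the list median), at 55506501 to 55506550 in treated wild type (1.73 times) and at 55507901 to 55507950 in untreated wild type (2.75 times, the highest of its locus). The untreated wild-type interval 55490251 to 55510750 contains all 3 positions, and in treated wild type the position is outside the intervals that carry the maximum, which end at 55505150. In the untreated knockout 5 called peaks tied at 2.2 times on that side, one of them with its maximum at 55500301 to 55500400. On the near 3' side the highest maximum was at 55302801 to 55302900 in the treated knockout (2.75 times, from a called peak in 6 pieces). It was at 55276151 to 55276200 in treated wild type (1.45 times) and at 55323101 to 55323150 in the untreated knockout (2.2 times). In untreated wild type 2 called peaks tied at 1.92 times. One of them contained the EGFR end and had its maximum inside the gene, at 55273251 to 55273300. The region of the maximum of the other ran from 55322351 to 55341650. The widest intervals of the other lists were also on the far 3' side, 7850 bp at 55553451 to 55561300 in the treated knockout, 7050 bp at 55655201 to 55662250 in treated wild type and 21000 bp at 55548301 to 55569300 in the untreated knockout.

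Every list had its longest stretch without an interval on the far 3' side. It measured 66.8 kb in the treated knockout, 242 kb in treated wild type, 66.4 kb in the untreated knockout and 68.2 kb in untreated wild type. The stretch empty in all lists ran from 55731551 to 55797800. In treated wild type the empty stretch ran from 55665201 to 55907350, where the treated knockout had 14 intervals, the untreated knockout 19 and untreated wild type 15.

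The bounds of the locus did not fall at a visible edge on the 3' side of untreated wild type, where the last interval inside was 55991751 to 55997900 and the next one outside was 55999851 to 56000200, both from the same called peak with a maximum 1.25 times the list median. At the lower bound that list had 54493001 to 54497650 outside (1.17 times) and 54501551 to 54503150 inside (1.08 times). Counts in the 0.5 Mb before the locus were 40, 10, 66 and 43 in the treated knockout, treated wild type, untreated knockout and untreated wild type, and in the 0.5 Mb after it 52, 14, 56 and 46. The middle 0.5 Mb of the locus, which holds EGFR, had 104, 45, 95 and 51. In bins of 100 kb the fullest was 55.2 to 55.3 Mb in both treated lists, with 26 intervals in the knockout and 16 in wild type. The untreated knockout had its fullest bins at 54.8 and 55.1 Mb with 22 each, and untreated wild type at 54.7 Mb with 16. Only in untreated wild type was the middle count below that of the first 0.5 Mb inside the locus, which was 70, 16, 80 and 66.

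Positions shared by all lists amounted to 76 stretches and 71.2 kb, with a median length of 850 bp. The gene body had 20 of them over 10.2% of its bases, while 4.75% of the whole locus was covered in all 4 lists. A further 11 lay on the far promoter side, 3 on the near promoter side, 11 on the near 3' side and 31 on the far 3' side. The longest ran for 6750 bp from 55655501 to 55662250, followed by 2500 bp from 55502201 to 55504700 and 2450 bp from 55339301 to 55341750. Shared bases made up 19.5% of what the treated knockout covered in the locus, 57.6% of what treated wild type covered, 11.2% of the untreated knockout and 8.58% of untreated wild type. Bases covered in every list but treated wild type came to 181 kb, of which 31.5 kb lay in the gene body.

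Without drug, the knockout list was set against the wild-type list. Whether a difference between them stems from the loss of METTL7A was not tested. The locus had 233 intervals in the knockout and 161 in wild type, a ratio of list shares of 1.77 (1.44 to 2.18, exact conditional interval). For background, 210 windows of this size held at least 20 intervals in either list: in 1.90% of them the share was 2 times or more that of wild type, and in 13.8% it was 0.5 times or less. The locus was under 2-fold, and 10 windows had a higher ratio. The gene body had 41 intervals in the knockout and 19 in wild type, or 2.64 times the share (1.5 to 4.81). The far promoter side had 78 and 65, or 1.47 times (1.04 to 2.07), and the far 3' side 79 and 55, or 1.76 times (1.23 to 2.53). The knockout intervals were narrower, and they covered fewer bases of the locus, 633.5 kb against 829.6 kb in wild type. The ratio for the locus became 2.53 when each called peak was counted once and 1.25 among peaks at or above the list median. That threshold kept 74.2% of the intervals of the knockout list and 51.9% of those of the wild-type list. Called peaks are not a like unit in these lists: 6.87% of knockout and 78.3% of wild-type intervals in the locus shared one with another interval. The rest of chromosome 7 had a ratio of shares of 0.933 (0.863 to 1.01).

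By an overlap of at least 1 bp, most intervals of the locus had a counterpart in the other untreated list. Of the knockout intervals, 34 of 233 had no wild-type interval overlapping them, or 14.6%, against 46.3% over the whole list. Of the wild-type intervals, 30 of 161 had no counterpart in the knockout, or 18.6%, against 64.9% over the list. In the gene body 40 of 41 knockout intervals and 19 of 19 wild-type intervals had a counterpart. By bases, 82.4% of what the knockout covered in the locus was covered in wild type, and 62.9% of what wild type covered was covered in the knockout, beside coverages of 42.2% and 55.3% of the locus. When the overlap had to reach 50% of both intervals, 27.9% of the knockout and 40.4% of the wild-type intervals had a counterpart.

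Under osimertinib the locus took a larger share of the knockout list than of the wild-type list. The knockout had 229 intervals and wild type 85, and the ratio of list shares was 3.47 (2.7 to 4.51). Differences of this size were common in that comparison: of 203 windows, 31.0% were 2 times or more as high in the knockout, 48.8% were 0.5 times as high or lower, and 48 exceeded the ratio of the locus. The ratio was 5.56 on the far promoter side (3.19 to 10.3), 3.87 on the near promoter side (1.17 to 16.4), 2.58 in the gene body (1.55 to 4.4) and 3.54 on the near 3' side (1.52 to 9.2). The rest of chromosome 7 also had a higher share in the treated knockout, by 4.25 times (3.71 to 4.87). Relative to it the ratio for the locus was 0.818 (0.612 to 1.1), and as a share of all intervals on chromosome 7 it was 0.854, so the direction depended on what the locus was set against.

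Of the treated knockout intervals in the locus, 161 of 229 had no counterpart in treated wild type, or 70.3%, against 86.6% over the list. Of the treated wild-type intervals, 19 of 85 had none in the knockout, or 22.4%, against 89.5% over the list. The gene body had counterparts for 21 of 48 knockout intervals and 20 of 24 wild-type intervals. On the far promoter side the counts were 11 of 69 and 11 of 16. By bases, 21.9% of what the knockout covered in the locus was covered in wild type, against 9.65% over the list. In reverse it was 64.6%, against 7.5% over the list. The knockout covered 24.3% of the locus and wild type 8.25%. When the overlap had to reach 50% of both intervals, 12.2% of the knockout and 32.9% of the wild-type intervals had a counterpart.

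**Figure D4:**
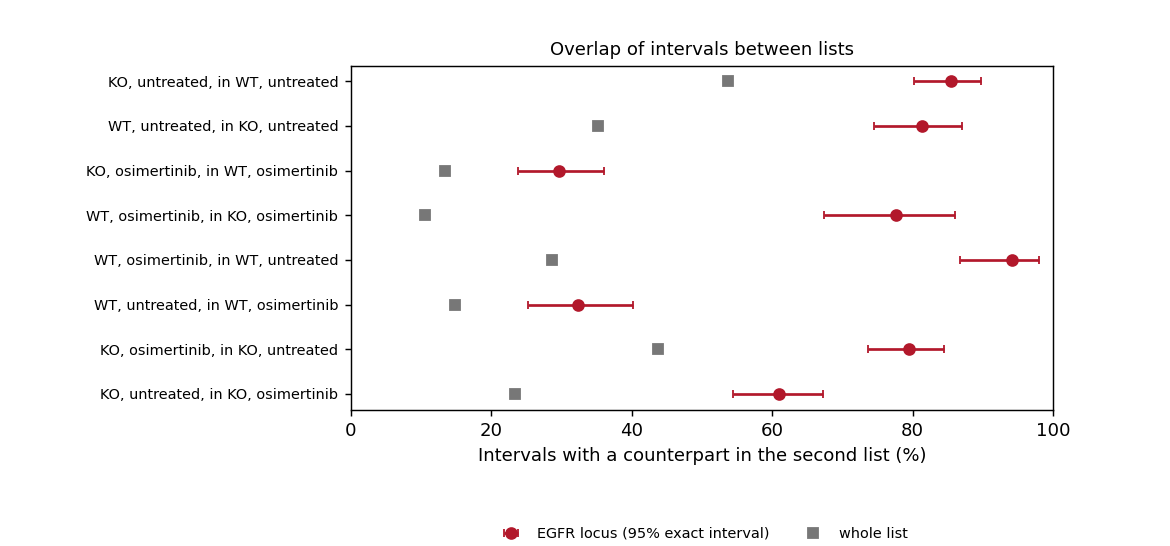
Percentage of intervals that have an overlapping interval in the second list named, for the EGFR locus with exact 95% intervals and for the whole list, in the 4 comparisons taken in both directions. The locus lies above the whole list in each of the 8 rows, from 29.7% to 94.1%. An overlap of 1 bp is likelier where the second list is dense, as it is in the locus, so the whole list is not a like background.

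In wild type, treated against untreated cells, the locus as a whole kept close to its share of the list while the parts of it did not move together. It had 85 treated and 161 untreated intervals, a ratio of list shares of 0.836 (0.635 to 1.09). Of 273 windows in this comparison, 32.2% were at least doubled under osimertinib, 35.9% were at 0.5 times or less, and the locus lay in the middle with 137 windows above it. The gene body had 24 treated and 19 untreated intervals, a ratio of 2.0 (1.05 to 3.86). The far promoter side had 16 and 65, a ratio of 0.39 (0.21 to 0.681), and the far 3' side 33 and 55, a ratio of 0.95 (0.597 to 1.49).

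The body made up 28.2% of the treated intervals of the locus (19 to 39) and 11.8% of the untreated ones (7.26 to 17.8), so that the ratio of body to rest was 2.94 times as high under osimertinib (1.42 to 6.11). Among 82 windows with at least 20 intervals in both lists, 18.3% had a ratio at least 2-fold higher for the same middle stretch. The ratio was 1.41 when each called peak was counted once, with 5 treated and 7 untreated peaks in the body, and 1.8 by covered bases. By number of covered bases the body was lower in treated than in untreated wild type, 37.7 kb against 162.2 kb.

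The rest of chromosome 7 held a much smaller share in treated than in untreated wild type, with a ratio of 0.302 (0.264 to 0.343). Relative to it the locus was 2.77 times as high (2.04 to 3.74). The locus was 23.2% of the intervals on chromosome 7 in treated wild type (19 to 27.9) and 9.84% in untreated wild type (8.44 to 11.4). In the knockout lists it was 19.8% treated and 17.2% untreated.

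In wild type most treated intervals touched an untreated one. Of the treated intervals 5 of 85 had no untreated counterpart, or 5.88%, against 71.3% over the list, and by bases 92.3% of what they covered was covered in untreated wild type, against 25.5% over the list. In reverse, 13.8% of the bases covered in untreated wild type were covered in treated wild type. The untreated list covered 55.3% of the locus with intervals of median width 3700 bp, against 1250 bp in the treated list. When the overlap had to reach 50% of both intervals, 7.06% of the treated intervals had a counterpart. In the other direction, 109 of 161 untreated intervals had no treated counterpart, or 67.7%, against 85.2% over the list. In the gene body 24 of 24 treated intervals had an untreated counterpart and 13 of 19 untreated intervals a treated one. Untreated wild type covered 86.1% of the body, so an overlap of 1 bp there was nearly certain wherever a treated interval lay. On the far promoter side these were 14 of 16 and 13 of 65.

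In the knockout, treated against untreated cells, the number of intervals at the locus was nearly equal, 229 and 233, while the list became shorter. The ratio of list shares was 1.64 (1.36 to 1.98). Of 149 windows in this comparison, 2.68% were at least doubled under osimertinib, 9.40% were at 0.5 times or less, and 13 had a higher ratio than the locus. The ratio was 1.95 in the gene body (1.26 to 3.04), 1.93 on the near 3' side (0.997 to 3.77), 1.65 on the far 3' side (1.19 to 2.28) and 1.47 on the far promoter side (1.05 to 2.07). When each called peak was counted once the ratio for the locus was 1.03, although 76% of treated and 6.87% of untreated intervals there shared a called peak. By covered bases the locus had 364.2 kb in treated knockout cells and 633.5 kb in untreated ones, and the ratio of body to rest was 1.24 by intervals (0.761 to 2.03), 0.779 by called peaks, with 16 treated and 39 untreated peaks in the body, and 1.01 by bases.

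Of the treated knockout intervals 47 of 229 had no untreated counterpart, or 20.5%, against 56.3% over the list, and of the untreated ones 91 of 233 had no treated counterpart, or 39.1%, against 76.6% over the list. Counterparts were found for 43 of 48 treated and 31 of 41 untreated intervals in the gene body, of which the untreated list covered 66.9% and the treated list 38.8%. By bases, 73.8% of what the treated knockout covered in the locus was covered in the untreated knockout, against 38.6% over the list.

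**Figure D5:**
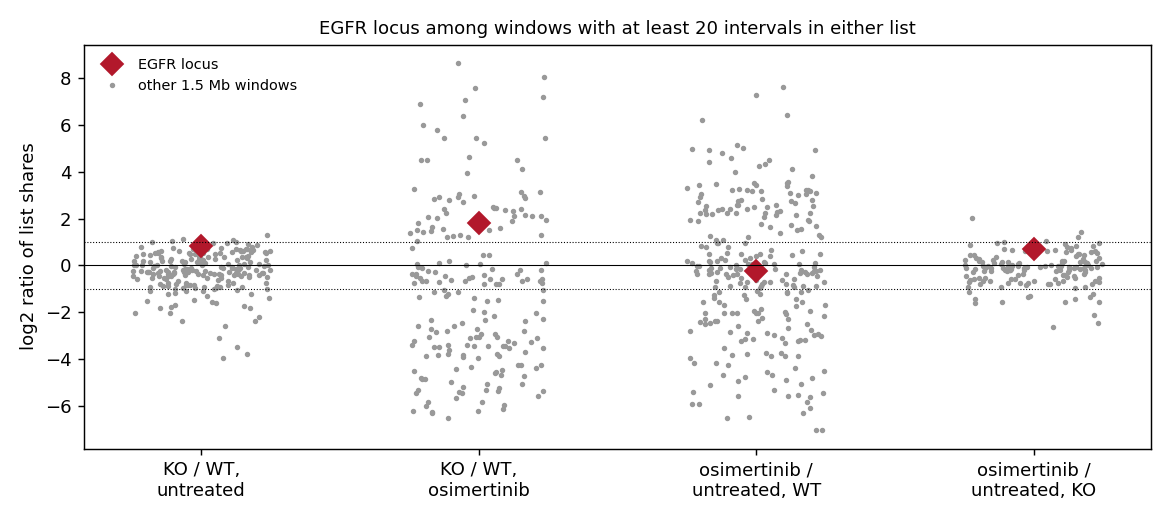
Log2 ratio of list shares, with 0.5 intervals added to each count, for the EGFR locus (diamond) and for the other windows of 1.5 Mb with at least 20 intervals in either list (dots), in the 4 comparisons; dotted lines mark a 2-fold difference. The locus stands at 0.82 for knockout over wild type without drug, 1.79 for the same under osimertinib, -0.26 for osimertinib over untreated in wild type and 0.71 in the knockout, so that it passes 2-fold in the second comparison only.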

How the data were processed

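PC9 cells were profiled by CUT&RUN with 8 TOP2B and 8 H2A libraries; the H2A libraries were not analysed here. The tools in the submitters' processing notes were Trimmomatic, FastQC, Bowtie2 2.4.2, SAMtools 1.16, SEACR, deepTools 3.5.1 and bedtools 2.30, on GRCh37. Neither the mode nor the control of SEACR is given in the sources used here, nor is its version. The lists come without a header, and columns were identified from their values: the area of a called peak is a deposited score, its maximum a deposited signal whose scaling is not given. The read depth behind the lists is unknown. Nothing says that replicates came from separate cultures, and the genotype was not checked.

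Positions are counted from 1 on GRCh37 and intervals lie on a grid of 50 bp. Members, segments and the rule for named intervals (the widest interval with the highest maximum in each segment, those at the ends of EGFR, the widest, the longest gaps and those common to all lists) were chosen with earlier results of these data known; ties and the positions of maxima were added after their values were seen. The fold minimum was 2, the window minimum 20 intervals. Calculations used Python 3.11.15, scipy 1.17.1 and pandas 2.3.3. Overlap counts were tested on simulated intervals, and window counts on the untreated wild-type list with some windows thinned at random. Alternatives were called peaks, summed length, a stricter maximum, other overlaps and other denominators.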

Additional observations from a re-analysis of the deposited data

Results flagged for a closer look

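By share of the list, osimertinib against untreated had opposite directions in the 2 genotypes for 4 quantities, with 1 list per condition and no test of the difference. For the share of the list in the whole locus the log2 ratio was 0.71 in the knockout and -0.26 in wild type, a difference of 0.97. That depended on the denominator: as a share of chromosome 7 the locus ratio was above 1 in both (1.16 in the knockout, 2.36 in wild type), and by numbers of intervals below 1 in both (0.983 and 0.528). On the far promoter side it was 0.56 and -1.36, a difference of 1.92. The near promoter side had 0.32 and -0.66, a difference of 0.98, from 12 and 16 intervals in the knockout and 4 and 10 in wild type. The far 3' side had 0.72 and -0.07, a difference of 0.79. The counting interval of the ratio of shares included 1 for the whole locus in wild type (0.635 to 1.09), for the far 3' side in wild type (0.597 to 1.49) and for the near promoter side in both the knockout (0.54 to 2.82) and wild type (0.145 to 2.19). In the gene body the share was higher under osimertinib in both genotypes when intervals were counted, whereas the ratio of body to rest by called peaks was 0.779 in the knockout and 1.41 in wild type.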

How the results depend on the processing

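Lists could not be split into replicates, so no replicate was left out. No paired analysis was possible because each list is an intersection over both replicates. Of 84 alternative values 57 lay within the 95% counting interval of the main value; the cause of the other differences was not tested. The share ratio for knockout over wild type was 2.53 by called peaks and 1.25 with the stricter maximum (untreated), and 2.69 by numbers of intervals and 0.854 as a share of chromosome 7 (osimertinib), the last a change of direction. For osimertinib over untreated it was 0.601 by summed length, 2.36 as a share of chromosome 7 and 0.528 by numbers in wild type, and 1.03 by called peaks, 1.16 as a share of chromosome 7 and 0.983 by numbers in the knockout. Per interval outside chromosome 7, an alternative chosen after seeing the data, all 4 ratios stayed within their intervals.

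With an overlap of 50% of both intervals, counterparts were found for 27.9% of untreated knockout and 40.4% of untreated wild-type intervals, 12.2% of treated knockout and 32.9% of treated wild-type intervals, 7.06% of treated and 3.73% of untreated wild-type intervals, and 27.9% of treated and 27.5% of untreated knockout intervals. Within 1 kb they were found for 94.8% and 88.8% in the untreated comparison, 38.9% of treated knockout intervals against treated wild type, 98.8% of treated wild-type intervals against untreated wild type, and 89.5% of treated and 75.5% of untreated knockout intervals against each other. The density ratio of gene body to rest was 1.14 in the treated knockout and 0.995 in treated wild type by called peaks, in wild type on the other side of equality, and 1.69 by covered bases in untreated wild type. Alternatives for the near sides stayed within their counting intervals.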
